A study of Mus musculus with 4 samples.

Results

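The array of dermal RNA from abdominal skin injected with PP2 was set against the 3 arrays of dermal RNA from skin injected with the vehicle, dimethyl sulphoxide (DMSO). It is 1 of the 4 arrays of the series, and the comparison asks which transcripts of the dermis were higher or lower after inhibition of Src-family kinases than in every vehicle condition. The 4 samples came from 10-week-old female C57BL/6 mice with no transgene or deletion named in the labels. They were abdominal skin of virgin mice with DMSO (the virgin array), dorsal skin of pregnant mice with DMSO (the dorsal array), abdominal skin of pregnant mice with DMSO (the abdominal array) and abdominal skin of pregnant mice with PP2 (the PP2 array). Injections were intradermal, 100 µl each, with 1 mM PP2 where it was given, 2 a day for 4 days. They began at 12 days post coitum (dpc) in the pregnant mice, whose skin the sample titles place at 15 dpc and the sample descriptions at 16 dpc. The abdominal array is thus the only vehicle array of the same site and stage as the PP2 array, and the sources used here do not say whether a sample held 1 mouse or several. The genes compared were the 13585, of 18193 genes with a probe set of a single symbol, that at least 1 array called present. They had 24581 such probe sets.

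Each condition had 1 array and no replicate, so no value here carries an error and no difference was tested. Signals are MAS5 intensities in arbitrary units, which can be compared between arrays for 1 probe set but not between probe sets. A gene was counted as higher when a probe set was called present on the PP2 array with a signal over 2 times that on each of the 3 vehicle arrays. It was counted as lower when a probe set was present on all 3 vehicle arrays and its PP2 signal was under 0.5 times each of theirs. A gene's representative probe set is the one with the highest mean log2 signal, and gene lists were described by it. Where the dimmer array did not call the transcript present, the fold is given as "at least", against the higher of its signal there and the lowest signal called present on that array. Where 4 signals stand in a row, their order is virgin, dorsal, abdominal and PP2.

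PP2 is a small molecule that blocks the Src-family kinases, non-receptor tyrosine kinases that sit below integrins, growth factor receptors and immune receptors. In fibroblasts they phosphorylate focal adhesion proteins and feed into ERK and STAT3 signalling, and in endothelium they act below the receptors for vascular growth factors. An inhibitor acts on kinase activity, and an array reads only the transcripts that follow. Dermal cells were freed with dispase and then collagenases, hyaluronidase and DNase after the fat had been removed, and the preparation was not sorted for a cell type.

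Among the genes that were higher on the PP2 array were those of the cytokine interleukin 6 and the chemokine CXCL2, and their promoters are shown with that of the related chemokine gene *Cxcl1* because all 3 hold the same motif. The sequences are from RefSeq (GRCm38.p6), 120 bases each, ending at the base before the gene's start. Capitals mark matches to the NF-κB consensus, named for a transcription factor of inflammatory genes and searched on both strands.

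Il6, chr5:30012994-30013113, plus strand: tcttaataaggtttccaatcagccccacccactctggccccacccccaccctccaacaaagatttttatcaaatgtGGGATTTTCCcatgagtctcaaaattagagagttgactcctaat
Cxcl1, chr5:90891125-90891244, plus strand: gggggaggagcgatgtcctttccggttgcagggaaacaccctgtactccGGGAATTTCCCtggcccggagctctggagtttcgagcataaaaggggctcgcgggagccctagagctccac
Cxcl2, chr5:90903779-90903898, plus strand: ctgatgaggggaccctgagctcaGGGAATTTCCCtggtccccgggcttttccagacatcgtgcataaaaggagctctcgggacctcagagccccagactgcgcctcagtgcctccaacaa

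The match begins 44 bases before the start of *Il6*. In *Cxcl1* and in *Cxcl2* the 2 strands match 1 base apart, at 71 and 70 and at 97 and 96 bases before the start. None of these matches overlapped a match to the other 3 motifs searched, of which TGANTCA (AP-1) was in 7.81% of all promoters. The NF-κB consensus was in 1480 of 32851 promoters of 300 bases (4.51%, 250 bases before to 50 after the start). Of the 53 genes that were higher, 41 had a promoter in the table, 54 promoters in all, and 6 of the 54 held it (11.1%; *Acox2*, *Cxcl2*, *Il6*, *Ptx3*, *Tmem200a*). TGANTCA was in 8 of the 54 (14.8%), of 7 genes, *Il6*, *Igf1* and *S100a7l2* among them. Among the 14 detected genes of acute inflammation with a promoter, 4 held the NF-κB consensus (*Csf1*, *Cxcl1*, *Cxcl2*, *Il6*), and *Csf1* was below all 3 vehicle arrays. TGANTCA was in 2 of the 14 (*Il1rn*, *Il6*). A match describes these letters only, and no binding was measured.

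Another set is shown for the circadian clock, with members on either side of the vehicle arrays. In *Per3* the capitals mark TTANGTAA, the D-box bound by the PAR bZIP factors HLF, DBP and TEF and by their opponent NFIL3. In *Tef* they mark CACGTG, the E-box bound by the activators BMAL1 and CLOCK.

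Per3, chr4:151044776-151044895, minus strand: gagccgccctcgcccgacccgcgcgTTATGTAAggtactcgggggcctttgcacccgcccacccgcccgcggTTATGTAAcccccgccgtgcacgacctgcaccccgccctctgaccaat
Tef, chr15:81802493-81802612, plus strand: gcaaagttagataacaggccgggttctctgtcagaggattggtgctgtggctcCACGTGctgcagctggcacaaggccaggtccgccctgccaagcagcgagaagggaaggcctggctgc

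The D-box was in 2.32% of all promoters and began 205 and 158 bases before the start of *Per3*, the only one of 14 clock genes with a promoter to hold it. The E-box was in 7.15% of all promoters, 127 bases before the start of *Tef*, and in those of 5 of the 14 clock genes (*Bhlhe41*, *Ciart*, *Cry1*, *Per1*, *Tef*).

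The 4 arrays called 58.4% to 59.7% of probe sets present. The PP2 array stood apart in several control probe sets. Its ratio of 3' to 5' control signal was 5.84 for *Gapdh*, against 1.41 to 2.97 on the vehicle arrays, and 15.6 for pyruvate carboxylase, against 6.63 to 7.59. For β-actin it was 2.70, within the 2.03 to 4.14 of the vehicle arrays. The 5' control of 18S ribosomal RNA read 256 on the PP2 array and 9632 to 18337 on the others, and the 9 spiked-in controls had a median of 1897 against 4014 to 6753. The median signal was 103 against 125 to 136. Each comparison below rests on this 1 array, and what these controls contributed to it was not tested.

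**Figure D1:**
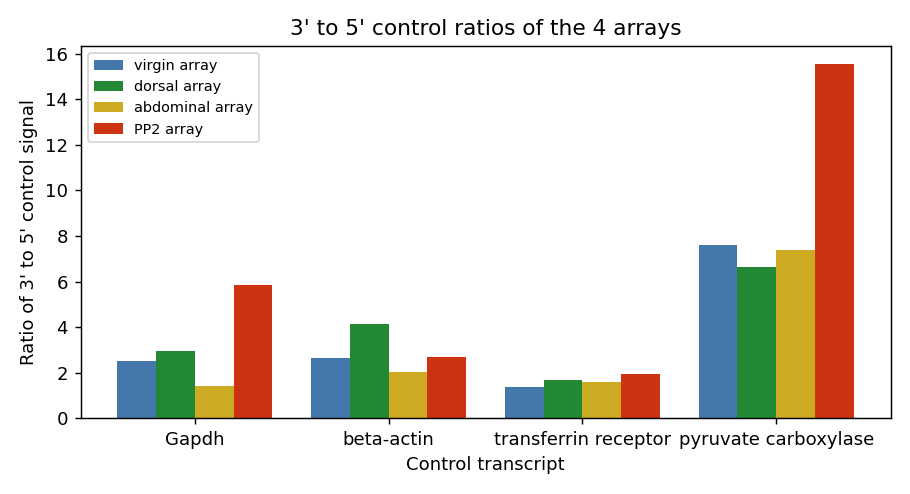
Bars give the ratio of 3' to 5' control signal (no unit) for 4 control transcripts, with 1 bar for each array. The PP2 bar is the highest for Gapdh (5.84), transferrin receptor (1.94) and pyruvate carboxylase (15.6) and lies among the vehicle bars for β-actin.

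Counts ran toward lower values. As deposited, 53 of the 13585 genes were higher (0.39%) and 508 were lower (3.74%). After quantile normalization, which gives all 4 arrays 1 distribution of signals, 118 were higher (0.869%) and 287 lower (2.11%), with 50 of the 53 and 284 of the 508 among them. By the representative probe set alone the counts were 37 higher (0.272%) and 132 lower (0.972%) as deposited, and 74 higher (0.545%) and 72 lower (0.53%) after quantile normalization. At any ratio, 28.4% of genes were above all 3 vehicle arrays and 28.3% below them, or 33.9% and 21.6% after quantile normalization. At a ratio of 2, either change alone thus left more lower than higher genes, and both together left nearly equal counts. At any ratio the 2 shares were nearly equal as deposited, and the share above was the larger after quantile normalization. Over all genes the median log2 ratio of the PP2 array was 0.01 over the virgin array, 0.01 over the dorsal array and -0.01 over the abdominal array, and 0.08, 0.12 and 0.04 after quantile normalization. At the threshold, *Cdh11* was counted with a smallest ratio of 2.0007 and *Lipa* was not with 1.999, and on the lower side *Cpeb4* was counted with a smallest fold of 2.00002 and *Kdm4a* was not with 1.999.

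The largest count, that of lower genes, was mostly 1 probe set of several. Of the 508 genes, 426 (83.9%) had more than 1 eligible probe set, as did 46.3% of all genes, and 3 of the 426 had all of them lower. Their 1008 other probe sets had a median log2 ratio of -0.16 over the vehicle mean, against -1.60 for those counted. Of these others, 435 were below all 3 vehicle arrays, 195 above all 3 and 378 neither, so they leaned to the lower side. By the representative probe set, 28.3% of all genes were below and 28.4% above. The 53 higher genes had 38 other probe sets, with 23 above all 3 vehicle arrays, 7 below all 3 and 8 neither. On the PP2 array the counted probe set was called present for 364 of the 508 lower genes, and 24 of the 53 higher genes were present on all 4 arrays.

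**Figure D2:**
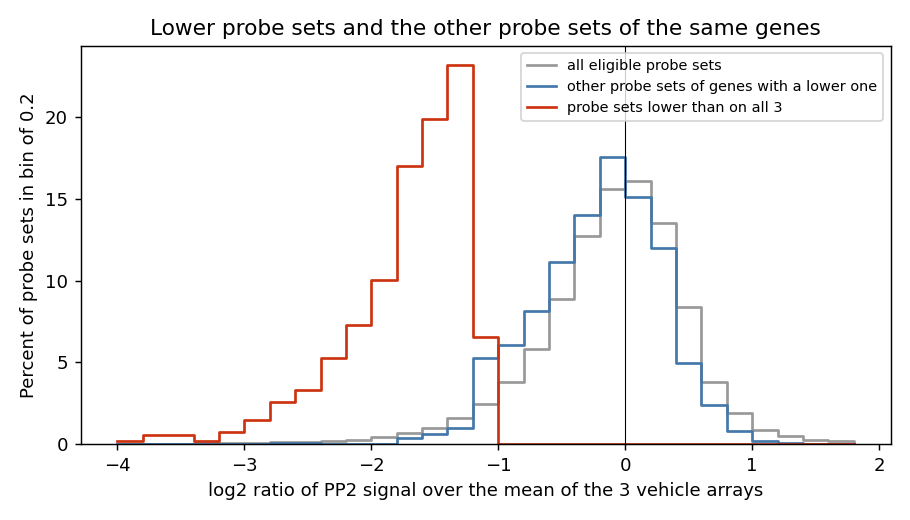
Steps give the percent of probe sets (vertical axis) in each bin of the log2 ratio of PP2 signal over the mean of the 3 vehicle arrays (horizontal axis). Probe sets counted as lower lie below -1 by their choice, while the other probe sets of the same genes have a median of -0.16. Of those 1008 others, 435 were below all 3 vehicle arrays and 195 above.

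Some inflammatory transcripts were among the higher genes. *Il6*, the cytokine interleukin 6, read 8093 after PP2, against 3127 in virgin, 2897 in dorsal and 1978 in abdominal vehicle skin, which is 2.59- to 4.09-fold higher. Its PP2 signal was above all vehicle signals by more than these differed among themselves. *Cxcl2*, which draws neutrophils, read 111 (virgin), 58 (dorsal), 101 (abdominal) and 242 (PP2), a difference of 2.17- to 4.17-fold. *Ccl2*, which draws monocytes, read 135 (virgin), 111 (dorsal), 79.7 (abdominal) and 274 (PP2) (2.02- to 3.43-fold). Both were dim but present on all 4 arrays, with the PP2 array highest. *Ptx3*, a soluble pattern recognition protein, read 47.6 (virgin), 33.1 (dorsal), 29.7 (abdominal) and 95.8 (PP2). *Ptgs2*, the inducible cyclooxygenase, was not counted, at 200.1, 276, 159.6 and 369 (smallest log2 ratio 0.42). *Cxcl1* read 1785, 1049, 1022 and 2735, highest on the PP2 array but under the threshold, and its 3 probe sets were all above the vehicle arrays. In the list of neutrophil and acute inflammation genes, 18 of 30 were detected and 3 were higher (*Il6*, *Cxcl2*, *Ccl2*), against 0.272% of all genes by the representative. Of the 18, 8 were above all 3 vehicle arrays (44.4%) and 3 below (16.7%), against 28.4% and 28.3% of all genes. Present on no vehicle array were 2 of the 18, which were detected only by the PP2 array. Their side was thus largely set by that choice, and the shares were not recomputed without them. The 3 below were *Ccl4*, at 159, 243, 154 and 69.5, *Il1b*, at 114, 86.1, 91.7 and 64.6, and *Csf1*, at 1266, 867, 1369 and 857. The neutrophil granule genes *S100a8* and *S100a9* were dim, at 100.2, 47.4, 68.7 and 52.5 and 31, 64.1, 3.68 and 16.1. The list's median log2 ratio was -0.01 over the virgin array, 0.54 over the dorsal array and 0.60 over the abdominal array.

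Single signalling, receptor and enzyme genes were also higher. *Map3k8*, a kinase between Toll-like receptors and ERK, read 499 (virgin), 423 (dorsal), 497 (abdominal) and 1228 (PP2), 2.46- to 2.9-fold higher. The vehicle signals differed little among themselves. *Dusp4*, a phosphatase that switches ERK off, read 519 (virgin), 338 (dorsal), 486 (abdominal) and 1056 (PP2) (2.03- to 3.13-fold). In the list of ERK feedback and early growth response genes, 15 of 16 were detected. Of these, 8 lay above all 3 vehicle arrays (53.3%) and 2 below (13.3%), against 28.4% and 28.3% of all genes. Counted as higher was 1, *Dusp4*, though not after quantile normalization (smallest log2 ratio 0.995), where 0.272% of all genes were higher as deposited by the representative. The list's median log2 ratio was 0.08 over the virgin array, 0.50 over the dorsal array and 0.51 over the abdominal array. Under the threshold, the feedback inhibitor *Spry1* read 1419.9, 1914, 1421 and 2701, *Dusp6* read 2556, 3103, 3245 and 4539.9 and *Myc* 1654, 1921, 1693 and 2929.8. *Spry2*, another member of the Sprouty family, was lowest on the PP2 array, at 1549.7, 1810.4, 1282 and 1065. *Fcgr2b*, the inhibitory receptor for immunoglobulin G, read 213 (virgin), 349 (dorsal), 224 (abdominal) and 1179 (PP2) by the counted probe set (3.38- to 5.53-fold), and its other 3 probe sets were above all vehicle arrays, with smallest ratios of 1.11 to 1.71. *Adamts4*, a protease of proteoglycans, read 429 (virgin), 568 (dorsal), 322 (abdominal) and 1402 (PP2) (2.47- to 4.36-fold). The hyaluronan synthase gene *Has2* was counted by a dim probe set, at 101, 52.8, 98.6 and 206, while its representative read 175, 76.8, 158 and 196.

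**Figure D3:**
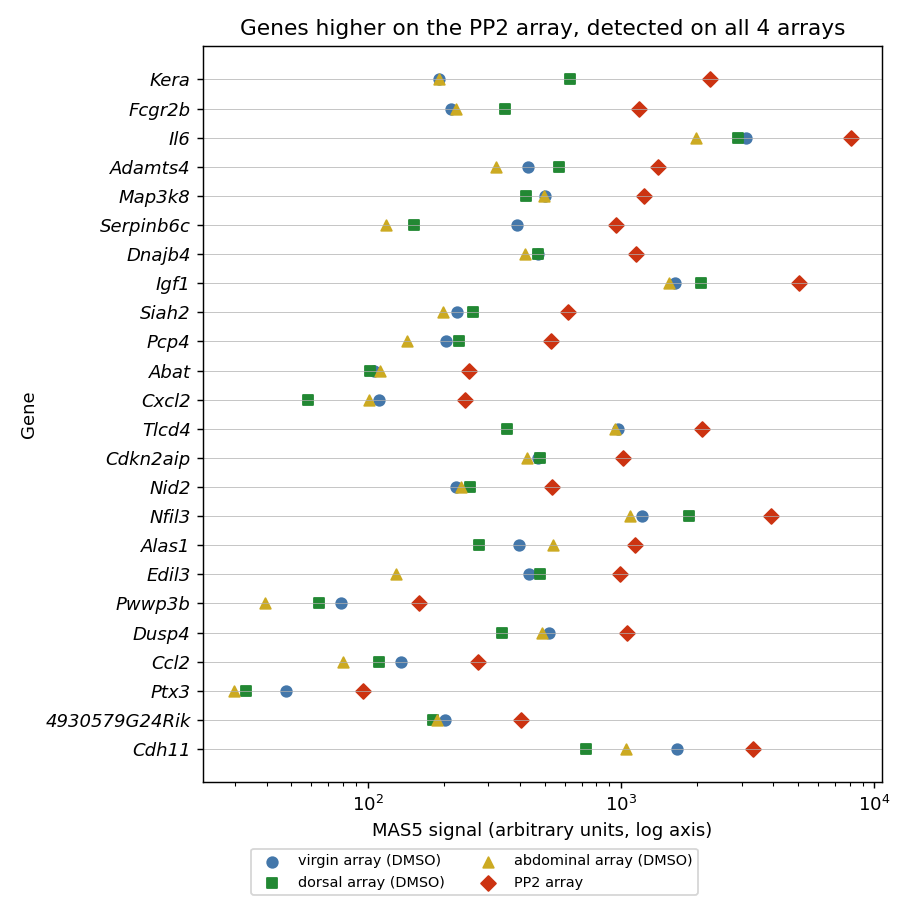
Points give the MAS5 signal (arbitrary units, log axis) on each of the 4 arrays for the 24 higher genes present on all 4, ordered by their smallest ratio. The PP2 point is right of all vehicle points for each gene by the rule, from Kera (at least 3.58 times each vehicle signal) to Cdh11 (2.0007 times).

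In the list of tendon, fascia and small proteoglycan genes, 2 were higher. *Kera*, keratocan, a proteoglycan that spaces collagen fibrils, read 2251 after PP2, against 191 in virgin, 628 in dorsal and 191 in abdominal vehicle skin, or 3.58- to 11.8-fold higher. Virgin and abdominal signals were alike and the dorsal signal was between them and PP2. *Pcp4*, a calmodulin-binding peptide, read 204 (virgin), 229.7 (dorsal), 143 (abdominal) and 528 (PP2) (2.3- to 3.7-fold). Several members were high on the dorsal array too. *Tnmd*, tenomodulin, a tendon membrane protein, read 629 (virgin), 3399 (dorsal), 800.3 (abdominal) and 5931 (PP2), *Coch*, cochlin, 1561, 9545, 1574 and 12768, *Mkx*, a tendon transcription factor, 144, 423, 148 and 567 and *Omd*, osteomodulin, 205, 514, 256 and 695. In these 4 genes the PP2 array was above the dorsal array, which was above the other vehicle arrays. *Fmod*, fibromodulin, at 1614, 18858, 1734 and 9534, was highest on the dorsal array. *Scx*, the transcription factor of tendon progenitors, was dim and inside the vehicle range at 144, 118, 88.2 and 99.9. Of 24 detected members (28 listed), 2 were higher, against 0.272% of all genes by the representative. The list, *Pcp4* included, was written with earlier results of these data known, so this count only describes it. Above all 3 vehicle arrays were 9 (37.5%) and below them 1 (4.17%), against 28.4% and 28.3% of all genes. The list's median log2 ratio was 0.60 over the virgin array, 0.25 over the dorsal array and 0.69 over the abdominal array.

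None of the 27 detected collagen chains was counted in a direction, where 0.272% of all genes were higher and 0.972% lower by the representative. Of the chains, 9 were above all 3 vehicle arrays (33.3%) and 3 below (11.1%), against 28.4% and 28.3% of all genes. *Col5a2*, a chain of the fibril-nucleating collagen V, read 5596 (virgin), 5358 (dorsal), 6281 (abdominal) and 9054 (PP2), and *Col11a1* 219, 339, 154 and 483. By the representative, the main fibril chains *Col1a1*, at 4844, 3344, 11529.6 and 6630.2, and *Col3a1*, at 29055, 22191, 30307 and 25395, were inside the vehicle range. *Col1a2* was lowest on the PP2 array, at 25695.5, 22237.7, 25489.4 and 19808.2, which quantile normalization removed, and its other probe sets were inside the vehicle range. *Edil3*, an integrin-binding matrix protein, read 433 (virgin), 478 (dorsal), 129 (abdominal) and 994 (PP2) (2.08- to 7.71-fold), with the abdominal array lowest. *Nid2*, nidogen 2 of basement membranes, read 223 (virgin), 253 (dorsal), 235 (abdominal) and 534 (PP2) (2.11- to 2.4-fold). *Cdh11*, the cadherin of mesenchymal cells, read 1662, 726, 1044 and 3326 and *Pdgfra*, the platelet-derived growth factor receptor that marks fibroblasts, 2398, 2285, 1778 and 4439. *Thy1*, another fibroblast marker, was also highest on the PP2 array, at 7382, 7130.4, 4725 and 9496, while *Dcn*, at 32528, 21595, 25734 and 21902, and *Lum*, at 8972, 1521, 6871 and 8663, stayed inside the vehicle range. Of 25 detected fibroblast genes, none was counted by its representative. By another probe set 1 was lower, where 3.74% of all genes were lower by any probe set. By the representative 7 lay above (28%) and 5 below (20%) all 3 vehicle arrays, against 28.4% and 28.3% of all genes.

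Growth factors made by dermal fibroblasts showed how far the call depended on the probe set. *Igf1*, insulin-like growth factor 1, read 1636 (virgin), 2073 (dorsal), 1554 (abdominal) and 5033 (PP2) by the counted probe set with the largest ratio (2.43- to 3.24-fold) and was counted by 2 of its 4 probe sets. Its representative read 4011, 5023, 2529 and 4794, with the PP2 array below the dorsal array. *Igf2* read 983 (virgin), 879 (dorsal), 882 (abdominal) and 1658 (PP2), highest on the PP2 array. *Igfbp2*, which the study names for the dermis, read 2023 (virgin), 646 (dorsal), 9084 (abdominal) and 3113 (PP2), so that the PP2 signal was under the abdominal one and above the other vehicle signals. *Sfrp1*, a secreted Wnt antagonist also named by the study, read 857, 992, 851 and 888 and stayed inside the vehicle range. The paper places *Sfrp1* among genes over 2-fold higher in pregnant abdominal dermis than in virgin, dorsal or PP2-injected dermis. The signals given here, of 1 probe set, do not show that difference. In the BMP list, 11 of 20 detected genes were above all 3 vehicle arrays (55%) and 3 below (15%), against 28.4% and 28.3% of all genes. The list's median log2 ratio over the vehicle mean was 0.34, or 0.11 with the mean over eligible probe sets. Its ligand gene *Bmp4* read 3103 (virgin), 1492 (dorsal), 1597 (abdominal) and 4338 (PP2), highest on the PP2 array, and 1 receptor gene, *Acvrl1*, was counted as lower, at 542, 529.9, 469 and 233, but not after quantile normalization (smallest log2 ratio -0.83).

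Of the 9 Src family kinases listed, 6 had a probe set of a single symbol, 5 were detected and none was counted in a direction. The 3 without such a probe set were not analysed here, and at a background of 0.272% and 0.972% a count of 0 among 5 says little. *Src* read 609 (virgin), 590.3 (dorsal), 341 (abdominal) and 606 (PP2), near the virgin and dorsal signals. *Yes1* read 1555, 1425, 1594 and 1737, but another probe set read 876, 909, 397 and 213. *Fyn* read 1965, 2407, 2018 and 2213, *Frk* 174, 169.7, 214 and 207 and *Fgr* 140.3, 130.4, 133 and 94. PP2 was highest for *Yes1* and lowest for *Fgr*, and inside the vehicle range for the other 3 genes. Among 29 detected regulators, substrates and partners of these kinases, 9 were above all 3 vehicle arrays (31.0%) and 10 below (34.5%), against 28.4% and 28.3% of all genes. Of the 29, 1 was counted, *Tln1*, the gene of talin, which links integrins to actin. It read 633 (virgin), 890.5 (dorsal), 831 (abdominal) and 259 (PP2) (2.45- to 3.44-fold lower) by its representative, and another probe set read 240.1, 147, 197 and 286, above all vehicle arrays. *Cttn*, cortactin, was lower by 1 probe set, 568, 396, 539.7 and 114, absent on the PP2 array, and its representative read 9819, 10553, 9827 and 8512. *Csk*, the kinase that holds Src inactive, read 343, 299.7, 364 and 223, *Ptpn1*, a phosphatase that activates Src, 2575, 2616, 2352 and 1543 and *Stat3* 4108, 4449, 3976 and 2475, all lowest on the PP2 array by the representative. The contractile list had no member counted by its representative among 25 detected genes. By another probe set 2 were lower, where 3.74% of all genes were lower by any probe set. By the representative 4 were above (16%) and 4 below (16%), both under the shares of all genes. *Acta2*, smooth muscle actin, read 14744 (virgin), 7569 (dorsal), 16453 (abdominal) and 10345 (PP2), inside the vehicle range and under the abdominal signal, as did *Tagln* (4874, 2553, 6695 and 3976) and *Myh11* (1923, 1117, 3706 and 1207). *Vim*, vimentin, read 39451, 42093, 29482 and 24733 and was lowest on the PP2 array, which quantile normalization removed.

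Among 23 detected blood endothelial genes, 2 were lower, against 0.972% of all genes by the representative. *Pecam1*, the adhesion molecule of endothelial junctions, read 906 after PP2, against 2044 in virgin, 2238 in dorsal and 2994 in abdominal vehicle skin, 2.26- to 3.3-fold lower. The vehicle signals lay closer to each other than to it. *Tie1*, an endothelial receptor tyrosine kinase, read 315 (virgin), 256 (dorsal), 354 (abdominal) and 95.2 (PP2) (2.69- to 3.72-fold lower). The receptor for vascular endothelial growth factor, *Kdr*, read 3978, 2596, 3237 and 1751, and *Plvap*, a protein of fenestrated vessels, 13446, 14050.1, 12029.5 and 7557. These too were lowest on the PP2 array but did not reach the threshold. Of the 23, 11 were below all 3 vehicle arrays (47.8%) and 2 above (8.7%), against 28.3% and 28.4% of all genes. After quantile normalization 13 were below and 1 above, where 21.6% and 33.9% of all genes were. Other defining markers did not follow: *Cdh5*, the endothelial cadherin, read 3399 (virgin), 3344 (dorsal), 4659 (abdominal) and 3967 (PP2), and *Tek*, the related receptor, 3158, 2488, 4216 and 3159, both inside the vehicle range. The list's summed signal was 68558 on the PP2 array and 78978 to 90337 on the vehicle arrays. *Rasip1*, a regulator of vessel lumen formation (351, 252, 395 and 36.7), *Fzd4*, a Frizzled receptor of vessels (1582, 1410.5, 1533 and 589), and *Sema3g*, a semaphorin of arteries (2222, 2771, 3032 and 906), were lower by the representative as well, and were chosen after their values were seen. In RNA from a mixed preparation, fewer cells of a type and less RNA per cell cannot be told apart.

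Of 15 detected clock genes (17 listed), none was counted by its representative, 3 were above all 3 vehicle arrays and 8 below, where 28.4% and 28.3% of all genes were. *Arntl*, which encodes BMAL1, read 1165 after PP2, against 483 in virgin, 560.0 in dorsal and 772 in abdominal vehicle skin, and its partners *Clock* and *Npas2* read 1227, 928, 1344 and 1938 and 151, 221, 185 and 329.7. All 3 activators were highest on the PP2 array by the representative, but the other *Arntl* probe set, at 233, 240.2, 199.6 and 188, was lowest there, and 1 of 4 *Clock* probe sets fell inside the vehicle range. Several outputs were below all 3 vehicle arrays. *Hlf* read 989 (virgin), 1591 (dorsal), 668 (abdominal) and 346 (PP2), *Dbp* 4446, 4466, 2150.4 and 1509, *Tef* 2775, 2291, 1654 and 1082 and *Nr1d1*, the repressor REV-ERBα, 744, 1049, 557 and 351. The period and cryptochrome genes *Per3*, *Per2* and *Cry2* were below all 3 vehicle arrays with smaller gaps, *Per3* at 461, 349, 206 and 158. *Nfil3*, which opposes the PAR bZIP factors at the D-box, is not in this list and was picked after its values were seen. It was counted as higher, at 1215 (virgin), 1854 (dorsal), 1084 (abdominal) and 3907 (PP2) (2.11- to 3.6-fold). With *Cdh11* and *Dusp4* it was 1 of the 3 higher genes not counted after quantile normalization (smallest log2 ratio 0.97). For the output genes the abdominal array was the vehicle array nearest to PP2. *Cry1*, a repressor (239, 435, 432 and 332), and *Bhlhe40*, another (8261, 5000.0, 1692 and 6442), were inside the vehicle range. After quantile normalization 3 genes were above and 6 below, where 33.9% and 21.6% of all genes were. *Tef* was lower by its other probe set (334, 544, 292 and 106). The median log2 ratio was -0.36 over the virgin array, -0.75 over the dorsal array and -0.38 over the abdominal array, and over the vehicle mean it was -0.50, or -0.10 for the members present on all 4 arrays. The sources used here do not give the hour at which a sample was taken. *Arntl*, *Clock* and *Per3* are named for their known role and the other clock genes were chosen after their values were seen.

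**Figure D4:**
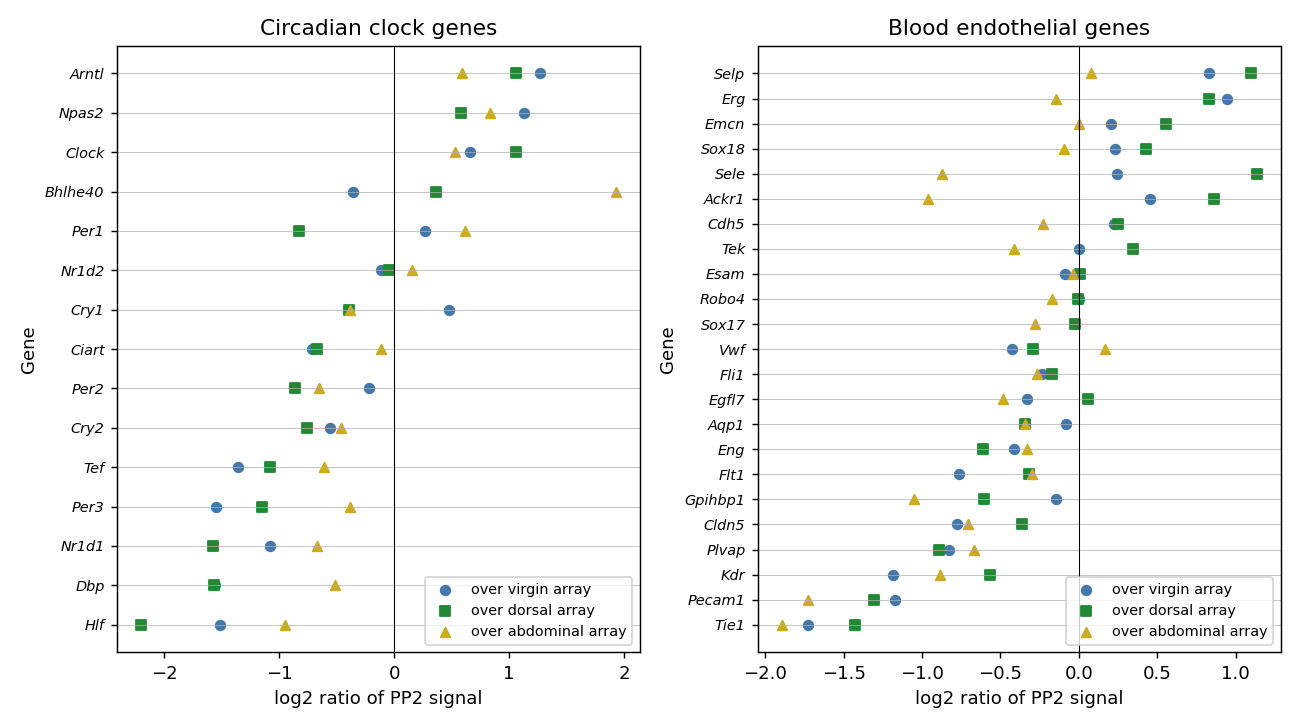
Points give the log2 ratio of PP2 signal over each of the 3 vehicle arrays (horizontal axis) for the representative probe set of each detected gene, for 15 circadian clock genes and 23 blood endothelial genes. Arntl, Npas2 and Clock lie right of 0 and 8 clock genes left of it in all 3 comparisons, and 11 endothelial genes lie left of 0 in all 3.

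None of 26 detected proliferation genes was counted, while 13 lay above all 3 vehicle arrays (50%, against 28.4% of all genes) and 0 below (against 28.3%). After quantile normalization 18 lay above and 0 below, against 33.9% and 21.6% of all genes. *Pcna*, the sliding clamp of DNA replication, read 4689.7 (virgin), 3399.5 (dorsal), 4932 (abdominal) and 7792 (PP2), *Ccna2*, cyclin A, 265, 175, 252 and 389, and *Cdk1*, the mitotic kinase, 216, 111, 257 and 339.8, each highest on the PP2 array. *Mki67*, the widely used proliferation marker, read 499, 208, 777 and 719.9 and was inside the vehicle range. The median log2 ratio was 0.53 over the virgin array, 1.09 over the dorsal array and 0.03 over the abdominal array, so that the gap was narrow against the abdominal array of the same site and stage.

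Ribosomal protein genes depended on the scale. As deposited, 12 of 14 detected genes were below all 3 vehicle arrays and 1 above, and after quantile normalization 3 were below and 5 above. Over all genes 28.3% were below and 28.4% above as deposited, and 21.6% and 33.9% after quantile normalization. *Rps14* read 32261 (virgin), 35767 (dorsal), 25688 (abdominal) and 20268 (PP2), and none of the 14 was counted in a direction.

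Markers of other cell types also differed on the PP2 array. The fibroblast markers *Pdgfra*, *Thy1*, *Dcn*, *Lum* and *Col1a1* were present on all 4 arrays, as the dermal label asks, but so were the keratinocyte markers *Krt5*, *Krt14*, *Krt1* and *Krt10*. *Krt5*, a keratin of basal keratinocytes, read 13759.8 (virgin), 19184 (dorsal), 16946 (abdominal) and 8098 (PP2), and *Krt77*, a type II epidermal keratin, 10756, 26604, 16688 and 5088. Of 27 detected keratinocyte genes, 1 was lower (*Krt77*), against 0.972% of all genes by the representative. Below all 3 vehicle arrays were 11 (40.7%) and above them 0, against 28.3% and 28.4% of all genes. The list's summed signal was 136104 against 167726 to 275159. By summed signal the PP2 array was lowest and the dorsal array highest. Hair keratin and root sheath genes set the abdominal array apart from the others: their summed signal was 45638 there, 5951 on the PP2 array, 3385 on the virgin array and 5461 on the dorsal array. The median log2 ratio of the 28 detected was 0.94 over the virgin array, 0.24 over the dorsal array and -2.63 over the abdominal array. Above all 3 were 0 and below them 5 (17.9%), against the same shares of all genes. *Krt35*, a keratin of the hair shaft, was present on the abdominal array only (51.4, 18.7, 1209 and 52.7).

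Immune cell markers took no single side. *Cpa3*, the carboxypeptidase of mast cells, read 170.0 (virgin), 65.5 (dorsal), 130.1 (abdominal) and 418 (PP2) and was called present on the PP2 array alone, at least 2.46-fold higher. *Cma1*, mast cell chymase, behaved alike (116, 54.4, 76 and 195), and 4 of 14 mast cell genes were detected, with 2 above all 3 vehicle arrays, 0 below and 1 counted. Over all genes 28.4% were above and 28.3% below. The 2 above were *Cpa3* and *Cma1*, which entered the list only by their present call on the PP2 array, so their side was largely set by that choice. The list's median log2 ratio over the vehicle mean was 0.68, or 0.04 for members present on all 4 arrays. Macrophage genes lay between the vehicle arrays, with a median log2 ratio of -0.98 over the virgin array, 0.98 over the dorsal array and -0.16 over the abdominal array. Of 30 detected, none was counted, and 2 were above (6.67%) and 3 below (10%) all 3, against 28.4% and 28.3% of all genes. The complement gene *C1qa* read 626, 70.8, 171 and 48.1. The summed macrophage signal was 26398 on the PP2 array, inside the 22423 to 32614 of the vehicle arrays. What these markers contributed to the inflammatory, endothelial and tendon genes above was not tested.

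**Figure D5:**
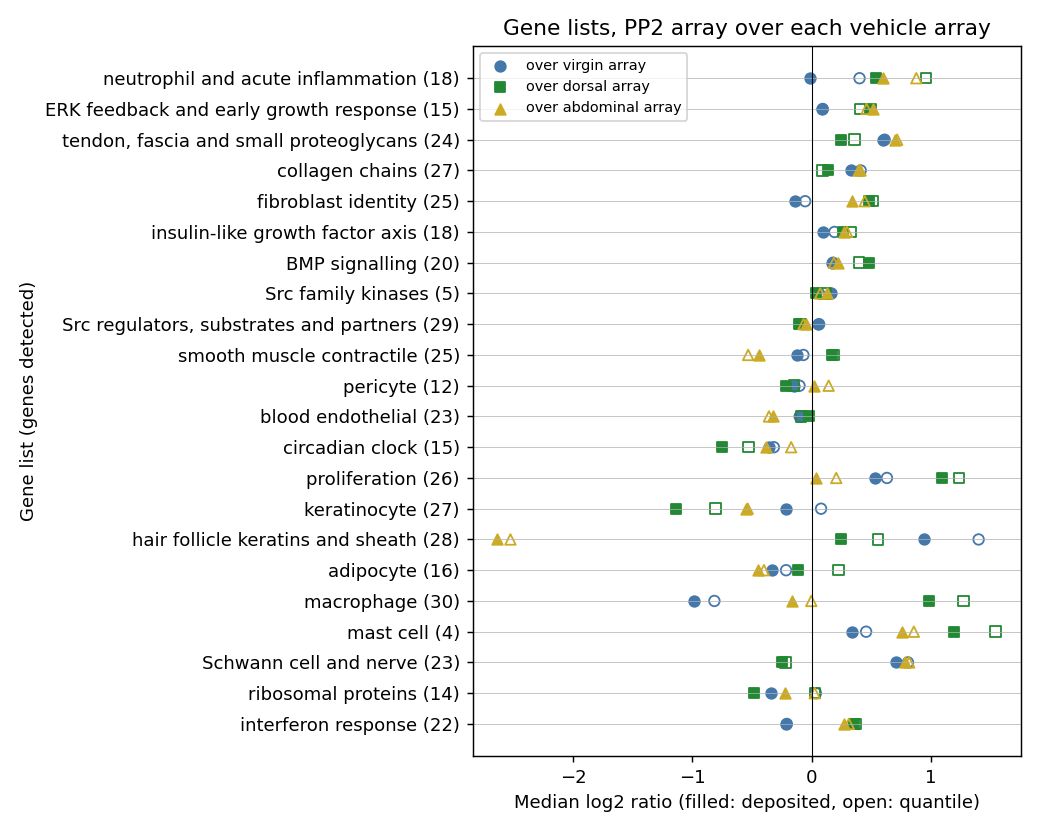
Points give the median log2 ratio (horizontal axis) of the PP2 array over each vehicle array for 22 gene lists, with the number of detected genes in brackets; filled points are signals as deposited and open points follow quantile normalization. Proliferation and tendon genes lie right of 0 in all 3 comparisons, clock genes left of it, and hair genes left of it only against the abdominal array (-2.63).

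Among the 15 higher genes with the largest smallest ratio, 10 were present on the PP2 array and on no vehicle array: *S100a7l2*, *Serpina7*, *Defb8*, *A330076H08Rik*, *2310005E17Rik*, *4930500H12Rik*, *Klk1*, *Tunar*, *Caly* and *Rem2*. *S100a7l2*, of the S100 family of calcium-binding proteins, read 582 after PP2, against 3.48 in virgin, 28.2 in dorsal and 2.87 in abdominal vehicle skin, which is at least 20.7-fold higher. *Defb8*, a defensin gene, read 11.1, 3.55, 13 and 85.3 (at least 6.54-fold), and the other 8 had PP2 signals of 7.21 to 278. For *Serpina7* the PP2 signal of 7.21 was under the lowest signals called present on 2 vehicle arrays, so it has no fold. *Rem2*, a small GTPase, and *Synpr*, a synaptic vesicle protein, read 78.3, 109, 51.8 and 278 and 154, 116, 116 and 431. *Ier5l* was counted by 1 probe set (206, 108, 129.7 and 685) while its representative lay on the opposite side (1545, 1187, 1190.1 and 959). *Klk1*, a tissue kallikrein, likewise was counted by a dim probe set, and its representative read 215, 271, 306 and 228.

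On the lower side, 2 of the first 15 genes were counted by their representative. *Cenpb*, a protein that binds centromeric repeats, read 1.87 after PP2, against 238 in virgin, 284 in dorsal and 254 in abdominal vehicle skin with a single probe set, at least 60-fold lower. *Rab27a*, a small GTPase of melanosome and granule transport, read 446 (virgin), 742 (dorsal), 569 (abdominal) and 39 (PP2) (11.4- to 19-fold lower). For *Akt1*, a kinase of growth and survival, the counted probe set read 138 (virgin), 131 (dorsal), 180.3 (abdominal) and 4.22 (PP2), at least 31-fold lower, while the representative read 973, 1118, 869.9 and 666, 1.31 to 1.68 times lower. *Rab2a*, a GTPase of the secretory path, read 459, 479, 399 and 32.2 by the counted probe set and 5197, 4224, 6319.9 and 6770.3 by the representative. *Itm2b*, a membrane protein, read 112, 155, 106 and 10.3 and 26801, 31556, 23569.7 and 17849.9 likewise, and *Hk1*, hexokinase 1, 33, 46.5, 49.8 and 1.72 and 1308, 1430.4, 1261 and 1519.8. *Arhgap29* read 377, 719, 796 and 49.2 and 4449, 5738, 4889 and 5629. In each of these genes the dim counted probe set stood far below the vehicle signals and the brightest one did not. *Ppp2r5c*, *Zfr* and *Sypl* had 7, 6 and 7 eligible probe sets, of which 2, 2 and 1 were lower. In *Klrb1b*, *Tcf3*, *Mrpl33*, *Os9* and *H13* the counted probe set was absent on the PP2 array and the representative was not counted.

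Other genes that were lower by their representative include some chosen after their values were seen. *Malat1*, a long non-coding RNA kept in the nucleus, read 27474 (virgin), 32759.5 (dorsal), 23373 (abdominal) and 10589 (PP2), 2.21- to 3.09-fold lower, and 5 of its 7 probe sets were lower, while 1 was above all 3 vehicle arrays (2849, 4709.8, 2863 and 5615). *Btg2*, an early response gene that restrains division, read 13932 (virgin), 11080.1 (dorsal), 7735 (abdominal) and 3492 (PP2) (2.22- to 3.99-fold lower), and its other probe set 4714, 2901, 2433 and 3400.2. *Apoe*, apolipoprotein E, read 17386 (virgin), 18377 (dorsal), 18165 (abdominal) and 8081 (PP2) (2.15- to 2.27-fold lower) with close vehicle signals. *Fmo2*, a flavin monooxygenase, read 755, 1118, 1471 and 311 and was lower by 3 of its 4 probe sets. *Mmp14*, the membrane-bound collagenase, had probe sets in opposite directions: 1 was counted as lower (1080.1, 1143, 1022 and 214) and the representative was highest on the PP2 array (3407, 4254, 3318 and 6851).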

How the data were processed

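Dermal RNA of 4 conditions was hybridised to Affymetrix mouse arrays, 1 each. The authors deposited, for each of 45101 probe sets, a MAS5 signal (an intensity on a linear scale, computed with Affymetrix Expression Console version 1 per the labels) and a detection call. MAS5 brings every array to the same trimmed mean, so a broad shift can be absorbed by the scaling. Symbols came from the platform annotation: 34945 probe sets had 1 symbol, 932 had several, and Entrez identifiers of 34741 matched the gene table of GRCm38.p6, used for names only. Ratios and log2 ratios were computed from the deposited intensities with no pseudocount (Python 3.11.15, pandas 2.3.3, numpy 2.4.6), again after quantile normalization, and with the alternatives given at the end. The rule was checked on simulated arrays. With 1 array per condition no test was made, and precision is limited by their number. The comparison, gene lists and promoters were chosen with earlier results of these data known. Named are the 15 genes with the largest smallest ratio in each direction, up to 4 counted members of a list, the Src family kinases, *Sfrp1*, *Igfbp2*, *Acta2*, *Vim* and up to 3 members of best known role in lists without a counted member. All other genes were chosen after their values were seen.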

Additional observations from a re-analysis of the deposited data

Results flagged for a closer look

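Probe sets without a single gene symbol stood outside the comparison. Of 5654 that at least 1 array called present, 4 were higher and 198 were lower on the PP2 array than on all 3 vehicle arrays by the same rule. They are unnamed here.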

How the results depend on the processing

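The counts of 53 higher and 508 lower genes depended on the scale, the ratio and the probe set read. Quantile normalization gave 118 higher and 287 lower genes, and 1 median of present signals 99 higher (357 lower). A ratio of 1.5 gave 395 and 1340, and a ratio of 3 gave 11 and 143. With presence on all 4 arrays 24 were higher, with presence on any 1 array 803 were lower, and with the representative probe set 132 were lower. With all eligible probe sets required to pass, 32 were higher and 85 lower. With fewer arrays to pass, 176 were higher and 849 lower without the virgin array, 185 and 717 without the dorsal array, and 175 and 832 without the abdominal array. Of 3 alternatives chosen after seeing the data, all eligible probe sets on the same side left 192 lower genes, quantile normalization with that condition 93 higher and 95 lower, and quantile normalization with the representative probe set 72 lower. Other alternatives kept the counts within 1.5 times. For 6 of 22 gene lists the median over the vehicle mean changed sign: Src family kinases from 0.16 to -0.13 with the mean over probe sets, ribosomal proteins from -0.34 to 0.035 with quantile normalization, and hair follicle genes from -0.55 to 0.81 without the abdominal array. The others were macrophage genes, from 0.02 to -0.51 without the dorsal array and -0.02 with presence on all 4 arrays, Src regulators, from -0.03 to 0.12 with 1 median of present signals and 0.02 without the dorsal array, and contractile genes, from -0.14 to 0.01 with 1 median and 0.002 without the abdominal array. With quantile normalization the smallest ratio changed sign in 3 further probe sets of named genes, 1 of *Cttn* (-0.15 to 0.10) and 2 of *Vim*, and some others went to 0. No paired analysis was possible because each condition had 1 array. The PP2 array has no second array against which its 3' to 5' ratios could be set, and dim probe sets are the least precise.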

Other observations

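Several other gene groups had no member counted by its representative. Of 18 detected genes of cholesterol synthesis, 1 was above and 2 below all 3 vehicle arrays, with a median log2 ratio of -0.15 over the virgin array, 1.12 over the dorsal array and -0.10 over the abdominal array, the dorsal array being the low one. Antigen presentation and dendritic genes had 7 of 13 below all 3 and 1 above, with a median of -1.01 over the virgin array, -0.08 over the dorsal array and -0.60 over the abdominal array. Dermal papilla genes, of the fibroblasts under the hair follicle, had 7 of 20 above and 1 below, with a median of 0.22 over the virgin array, 0.26 over the dorsal array and 1.08 over the abdominal array. Adipocyte genes had 1 of 16 above and 5 below, and their summed signal was 63375 on the PP2 array against 58626 to 91417. Schwann cell and nerve genes had 6 of 23 above and 3 below, with a median of 0.71 over the virgin array, -0.25 over the dorsal array and 0.78 over the abdominal array. By another probe set 2 of them were lower, where 3.74% of all genes were lower by any probe set. In these 5 lists the count is by the representative probe set, by which 28.4% of all genes were above all 3 vehicle arrays and 28.3% below.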
